A study of Mus musculus with 35 samples.

Results

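The genes described here mark the medium spiny neurons of the striatum. All probe sets annotated to 9 named genes (Pde10a, Gpr6, Drd1, Drd2, Adora2a, Penk, Tac1, Ppp1r1b and Rgs9) were taken, whatever their values. Of the 9 genes, 8 had a probe set with a single listed symbol, and Adora2a had no such probe set here. The 8 genes carried 16 of the 45037 probe sets tested, and the array as a whole covered 18193 genes. Drd2, Gpr6, Penk and Ppp1r1b had 1 probe set each, and the other 4 genes had several. The brightest probe set of a gene, by its mean in the surgery arrays, is called its leading probe set (1456051_at for Drd1, 1416783_at for Tac1, 1418950_at for Drd2, 1440148_at for Gpr6, 1427038_at for Penk, 1458499_at for Pde10a, 1451331_at for Ppp1r1b and 1418691_at for Rgs9).

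RNA came from brain hemispheres of male mice and was measured on 35 Affymetrix mouse genome arrays, 1 RNA sample an array. Wild type mice were of the FVB strain, and knockout mice lacked the beta2 adrenergic receptor on the FVB background. In middle cerebral artery occlusion (MCAO), an artery that supplies the striatum and lateral cortex is blocked. The ischemic hemisphere was taken at 24 h from 7 wild type and 7 knockout arrays, the same side after sham surgery from 3 arrays of each genotype at 24 h, and 8 wild type and 7 knockout arrays came from naive mice. The labels name no age, no Cre driver and no cell type for the deletion, and do not say whether each array is a separate animal, so p-values measure the spread between arrays. Values are log2 signals, on which a difference of 1 is a 2-fold difference, and naive and surgery arrays were scaled apart and are never compared in level.

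Medium spiny neurons are the GABAergic output neurons of the striatum. Neurons of the direct pathway carry the dopamine D1 receptor and the substance P precursor, and those of the indirect pathway carry the D2 receptor, the adenosine receptor encoded by Adora2a, and proenkephalin. In both kinds dopamine acts through cyclic AMP: receptors raise or lower its synthesis, phosphodiesterase 10A breaks it down, and DARPP-32 (the product of Ppp1r1b) inhibits protein phosphatase 1 once protein kinase A has phosphorylated it. The striatum lies in the core of the territory that MCAO deprives of blood. In RNA of a whole hemisphere, fewer cells of a type and less RNA per cell cannot be told apart.

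Promoter windows are shown for Gpr6 and Pde10a, the genes with the largest falls after MCAO in wild type. All 8 measured genes had negative changes there, and cyclic AMP signalling is common to both kinds of neuron. Whether these windows bear on the changes was not tested. Windows run from 250 bases before to 50 after the annotated start (RefSeq, GRCm38.p6), 5′ to 3′ on the gene's strand. Capitals mark the palindromic cyclic AMP response element TGACGTCA, the TATA box TATAAA or the GC box GGGCGG on either strand, and no match of one overlapped a match of another.
Gpr6, chr10:41072241-41072540, minus strand: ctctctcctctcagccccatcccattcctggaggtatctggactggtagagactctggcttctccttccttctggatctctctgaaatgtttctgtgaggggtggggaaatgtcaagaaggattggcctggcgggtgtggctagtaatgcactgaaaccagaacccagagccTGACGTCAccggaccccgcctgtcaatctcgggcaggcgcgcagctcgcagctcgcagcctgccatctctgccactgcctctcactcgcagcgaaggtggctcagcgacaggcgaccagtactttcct
Pde10a first start, chr17:8801495-8801794, plus strand: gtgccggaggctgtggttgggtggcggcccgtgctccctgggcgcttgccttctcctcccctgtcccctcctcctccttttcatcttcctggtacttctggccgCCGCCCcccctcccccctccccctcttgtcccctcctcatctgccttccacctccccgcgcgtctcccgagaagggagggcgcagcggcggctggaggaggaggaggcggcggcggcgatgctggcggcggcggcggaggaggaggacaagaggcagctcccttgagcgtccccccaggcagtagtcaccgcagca
Pde10a second start, chr17:8849735-8850034, plus strand: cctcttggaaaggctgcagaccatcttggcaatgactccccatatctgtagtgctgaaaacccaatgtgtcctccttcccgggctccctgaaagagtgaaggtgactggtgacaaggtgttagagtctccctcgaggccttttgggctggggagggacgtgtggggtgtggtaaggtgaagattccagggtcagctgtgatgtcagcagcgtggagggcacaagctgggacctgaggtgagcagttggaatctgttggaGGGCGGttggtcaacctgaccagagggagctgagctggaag

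Windows were at hand for 6 of the members, 8 windows in all, with a pair of starts for Drd1 and for Pde10a. Penk, Adora2a and Ppp1r1b had no entry. The Gpr6 window held TGACGTCA, beginning 78 bases before the start, and none of the 7 other windows did. Of 32851 promoter windows of this length, 1.79% held it. GGGCGG stood in every member window but that of Gpr6, against 35.7% of all windows, and TATAAA in that of Rgs9 against 13.6%. A match describes letters and is not evidence of binding.

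The sham arrays of a genotype were far apart for these genes, and this touches every comparison with sham. The mean of the 8 leading probe sets was 10.33, 10.96 and 8.42 in wild type sham arrays 1, 2 and 3, and 10.57, 8.75 and 8.88 in knockout sham arrays 1, 2 and 3. In MCAO arrays it ran from 8.03 to 8.87 in wild type and from 7.74 to 9.15 in knockout. Wild type sham arrays 1 and 2 and knockout sham array 1 therefore lay above every MCAO array of their genotype for all 8 genes. Wild type sham array 3 was above the MCAO range for 1 gene, within it for 5 and below it for 2. Knockout sham arrays 2 and 3 were each above it for 2 genes and within it for 6.

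The spread was widest for Gpr6, an orphan receptor of indirect pathway neurons, whose wild type sham arrays spanned 3.39 log2 units, or 10.4-fold, and narrowest there for Pde10a at 2.02 units, or 4.05-fold. Other striatal genes split the same way: the mean of 18 further medium spiny neuron genes was 9.43, 9.71 and 8.40 in the wild type sham arrays and 9.45, 8.40 and 8.47 in the knockout ones. That of 10 pan-neuronal genes stayed between 12.25 and 12.48 over the 6 sham arrays. The mean of 7 of 7 hippocampal markers was lowest in the array of each genotype in which the members were highest, at 7.18, 6.67 and 7.80 in wild type and 6.78, 7.48 and 7.51 in knockout (summed linear signal 1841 to 2396 and 1910 to 2261). Hypothalamic markers spread more, at 6.08, 7.55 and 6.24 in wild type and 6.88, 6.71 and 8.10 in knockout sham arrays, and so were highest in wild type array 2, where the members were highest, and in knockout array 3, where they were not. Thalamic markers ran from 8.07 to 8.35 in wild type and were 8.49, 8.58 and 9.28 in knockout. The part of these lists in the result was not tested.

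**Figure D1:**
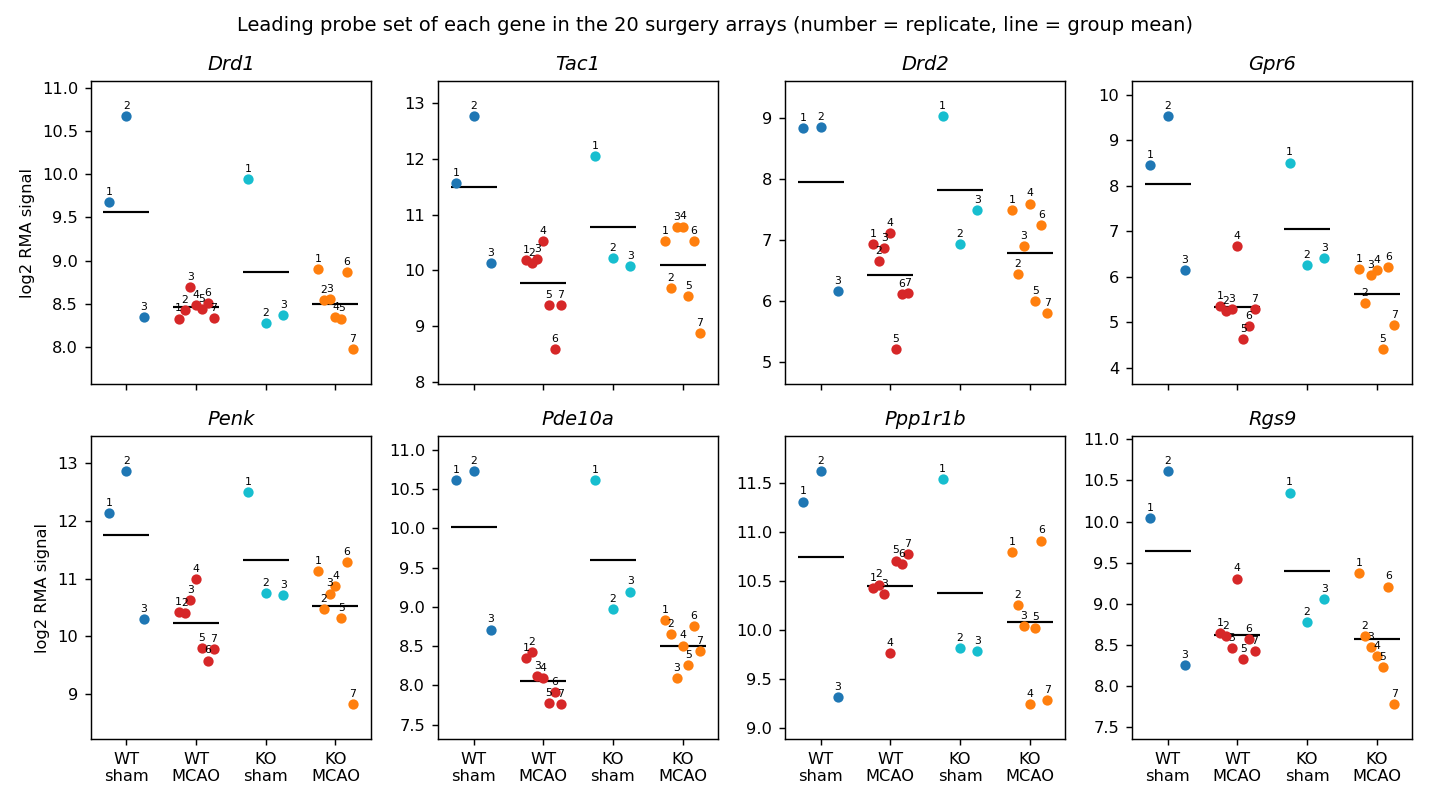
Log2 signal (y axis) of the leading probe set of 8 medium spiny neuron genes in the 20 surgery arrays, by group (x axis; WT wild type, KO knockout). Each point is an array with its replicate number and each line a group mean: sham arrays 1 and 2 of wild type and 1 of knockout lie above all MCAO arrays of their genotype in each panel.

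In wild type mice, 4 of the 8 genes were lower after MCAO than after sham: Pde10a, Gpr6, Tac1 and Drd1. The median change of the 8 was -1.53, with a range from -2.71 to -0.30, against a median of 0.05 over all genes. Across the array 6.26% of genes were lower in this comparison (limma, adjusted p under 0.05 over all probe sets). Drd2, Penk, Rgs9 and Ppp1r1b also had negative changes and did not pass. The number called depended on single arrays. For sham arrays it was 2 without array 1 (Gpr6 and Pde10a), 1 without array 2 (Pde10a) and 7 without array 3 (all but Ppp1r1b). In those fits 2.6%, 3.16% and 3.06% of all probe sets were lower. For the fits without an MCAO array the share of all probe sets is not given here. It was 3 without MCAO array 1, 2 or 3, with Drd1 lost, 4 without array 4, with Drd1 lost and Penk gained (adjusted p = 0.0487), and 2 without array 5, 6 or 7, with Drd1 and Tac1 lost.

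Of the direct pathway genes, Drd1 encodes the dopamine D1 receptor, which raises cyclic AMP. Its signal was 9.68, 10.68 and 8.34 in the wild type sham arrays and 8.33 to 8.70 in the MCAO arrays (median 8.44). The MCAO arrays thus formed a tight band that held sham array 3. Drd1 was lower by a change of -1.11 (SE 0.35, adjusted p = 0.0488, n = 7 and 3), or 2.15-fold. The call failed in 9 of the 10 fits that left out 1 array: without sham array 2 the change was -0.55 (adjusted p = 0.365), without sham array 1 it was -1.05 (adjusted p = 0.164), and without any 1 of the 7 MCAO arrays the adjusted p was 0.0521 to 0.0746. A further Drd1 probe set changed by -1.33 and narrowly missed the threshold (adjusted p = 0.0539).

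Tac1, the precursor gene of substance P, read 11.56, 12.77 and 10.13 after sham and 8.58 to 10.52 after MCAO (median 10.13) in wild type. Arrays 1 to 4 of the MCAO group stood near sham array 3 and arrays 5 to 7 lower. The change was -1.72 (SE 0.53, adjusted p = 0.0417), or 3.30-fold, and -1.08 without sham array 2 (adjusted p = 0.278). It also did not pass without sham array 1 (adjusted p = 0.135) or without MCAO array 5, 6 or 7. Another Tac1 probe set, 1431883_at, was dim (percentile 11.4 of all probe sets by mean) and differed by 0.12.

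Among indirect pathway genes, Gpr6 had the largest change of the 8. Its wild type sham arrays read 8.46, 9.54 and 6.15, and its MCAO arrays 4.63 to 6.67 with a median of 5.28. MCAO array 4, at 6.67, was the only one above sham array 3. The change was -2.71 (SE 0.59, adjusted p = 0.00506), or 6.54-fold, and -1.97 without sham array 2, which did not pass (adjusted p = 0.0645).

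Drd2, which encodes the dopamine D2 receptor that lowers cyclic AMP, read 8.83, 8.85 and 6.17 after sham in wild type. After MCAO it read 5.21 to 7.11 with a median of 6.65, so sham array 3 lay inside the MCAO range. The change of -1.52 did not pass (SE 0.55, 95% interval -2.66 to -0.37, adjusted p = 0.0817), and without sham array 3 it was -2.41 and did (adjusted p = 0.00906).

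Penk encodes proenkephalin, the precursor of the enkephalins. In wild type it read 12.13, 12.86 and 10.29 after sham and 9.57 to 10.99 after MCAO (median 10.40), again with sham array 3 among the MCAO arrays. The change was -1.54 (SE 0.52, adjusted p = 0.0599) and did not pass.

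Of the genes common to both kinds of neuron, Pde10a alone had wild type groups that did not overlap, which held for 9.26% of all genes in that direction. It read 10.62, 10.73 and 8.71 after sham and 7.76 to 8.42 after MCAO (median 8.09). The change was -1.96 (SE 0.35, adjusted p = 0.00106), or 3.88-fold. Pde10a passed in each fit that left out 1 array, with changes from -2.61 to -1.60 and adjusted p from 5.16e-05 to 0.0168.

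Pde10a had 5 probe sets, all of them lower in mean after MCAO in wild type, and 3 were called. Beside the leading one these were 1439618_at at -2.08 (adjusted p = 0.000951, no overlap between groups) and 1419390_at at -1.72 (adjusted p = 0.0164). Probe sets 1419389_at (-0.78, adjusted p = 0.0671) and 1432490_a_at (-0.53, adjusted p = 0.109) did not pass. Probe sets of 1 gene share their RNA and are not replicates. Over all members 6 of 16 probe sets were lower, against 5.59% of all probe sets.

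Ppp1r1b, which encodes DARPP-32, changed least. Its wild type sham arrays read 11.31, 11.62 and 9.32, and its MCAO arrays 9.77 to 10.77 with a median of 10.47. All 7 MCAO arrays were above sham array 3 and below the other sham arrays. The change was -0.30 (SE 0.44, 95% interval -1.22 to 0.63, adjusted p = 0.708), and it was -1.01 without sham array 3 (adjusted p = 0.173) and 0.14 without sham array 2 (adjusted p = 0.899).

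Rgs9 encodes a regulator of G protein signalling that shortens signals of dopamine receptors. It read 10.04, 10.61 and 8.26 after sham and 8.33 to 9.31 after MCAO in wild type (median 8.57), so sham array 3 was the lowest of the 10. The change of -1.02 did not pass (SE 0.40, adjusted p = 0.114). Of its further probe sets, 1439635_at changed by -1.41 (adjusted p = 0.0594), and 1426033_at, dim at percentile 15.9, differed by 0.01.

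**Figure D2:**
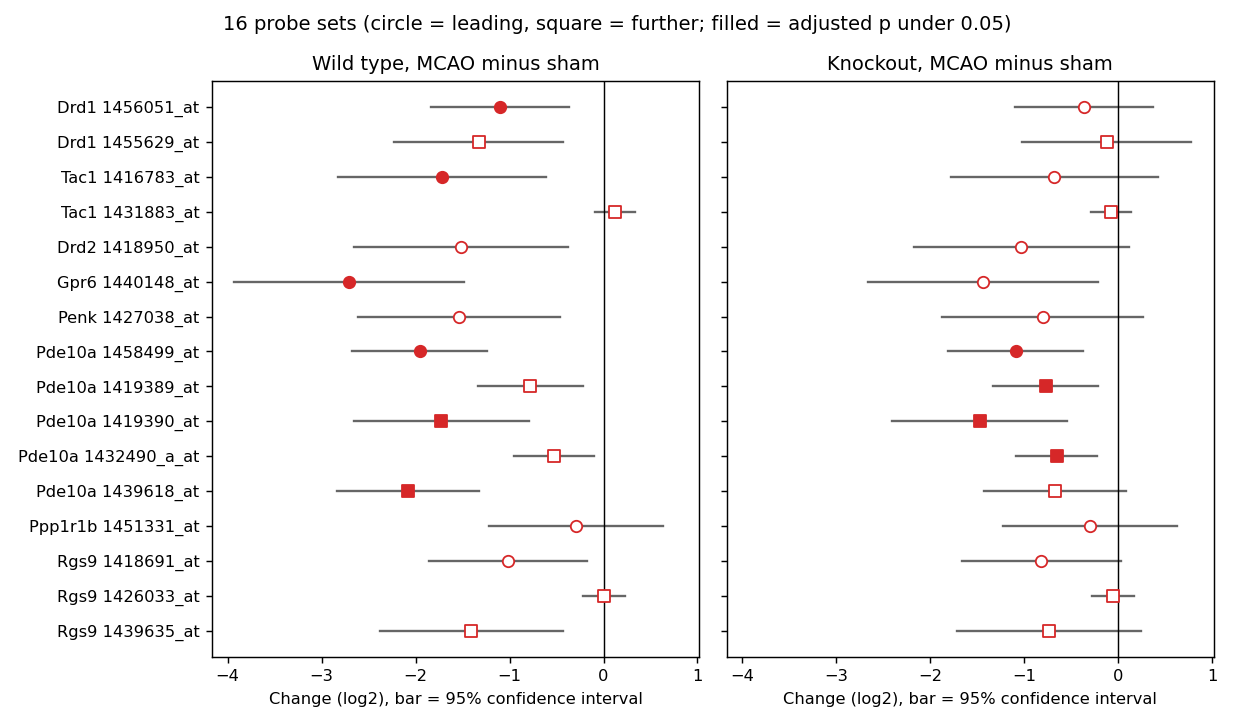
Change after MCAO in log2 units (x axis; points, with 95% confidence intervals as bars) of the 16 probe sets (y axis) in wild type and knockout mice. In wild type 6 points are filled, meaning an adjusted p under 0.05, and in knockout mice 4, all of Pde10a; the Ppp1r1b intervals span 0 in both.

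In knockout mice, Pde10a was the only 1 of the 8 genes lower after MCAO, against 7.59% of all genes. The median change of the 8 was -0.81, from -1.44 to -0.30, with all 8 negative, and the median over all genes was -0.00455. Pde10a read 10.62, 8.97 and 9.20 after sham and 8.09 to 8.83 after MCAO (median 8.51), without overlap, as did 9.17% of all genes. The change was -1.09 (SE 0.35, adjusted p = 0.0332), or 2.13-fold.

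Of the 5 Pde10a probe sets 4 were lower in knockout mice: besides the leading one 1419390_at (-1.47, adjusted p = 0.0265), 1432490_a_at (-0.65, adjusted p = 0.0329) and 1419389_at (-0.77, adjusted p = 0.0488). These were the 4 of 16 member probe sets called, against 7.94% of all probe sets. The call of the leading probe set rested on single arrays: without sham array 1 its change was -0.58 (adjusted p = 0.264), and it also missed the threshold without sham array 3 or without MCAO array 3 or 5. No gene was called with the 3 prime minus 5 prime difference of the actin control probe sets in the fit. That difference was 0.86 to 1.01 in wild type sham, 1.60 to 1.76 in knockout sham, 0.39 to 1.70 in wild type MCAO and 0.43 to 1.75 in knockout MCAO arrays, and its part in the result was not tested. The Gapdh difference was -0.27 to -0.25 in knockout sham arrays and -0.25 to 1.18 in knockout MCAO arrays. The Pde10a change was -1.04 with it in the fit (adjusted p = 0.0694) and -1.06 without the 3 MCAO arrays at 0 or above (adjusted p = 0.0922), and neither passed.

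Gpr6 in knockout mice also had groups without overlap, at 8.51, 6.25 and 6.41 after sham and 4.41 to 6.22 after MCAO (median 6.04). The nearest arrays, sham 2 at 6.25 and MCAO 6 at 6.22, differed by little, and the change of -1.44 did not pass (SE 0.59, 95% interval -2.66 to -0.21, adjusted p = 0.0890). Drd2 read 9.03, 6.93 and 7.48 after sham and 5.80 to 7.59 after MCAO (median 6.90), a change of -1.03 (adjusted p = 0.187). For Drd2 only sham array 1 stood clear of the MCAO arrays, while for Gpr6 all 3 did, arrays 2 and 3 by a small margin.

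Neither neuropeptide precursor passed in knockout mice. Penk read 12.50, 10.75 and 10.71 after sham and 8.81 to 11.29 after MCAO (median 10.74; change -0.80, adjusted p = 0.274). Tac1 read 12.05, 10.22 and 10.07 after sham and 8.87 to 10.78 after MCAO (median 10.52; change -0.68, adjusted p = 0.374). In each case sham arrays 2 and 3 lay within the MCAO range, and MCAO array 7 was the lowest.

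Drd1 in knockout mice read 9.95, 8.28 and 8.37 after sham and 7.97 to 8.90 after MCAO (median 8.54), a change of -0.36 (adjusted p = 0.482). Rgs9 read 10.35, 8.77 and 9.06 after sham and 7.78 to 9.38 after MCAO (median 8.48), a change of -0.82 (adjusted p = 0.157). Ppp1r1b read 11.54, 9.81 and 9.79 after sham and 9.24 to 10.91 after MCAO (median 10.04), a change of -0.30 (95% interval -1.22 to 0.63, adjusted p = 0.659). All 3 had overlapping groups, and the direction of Drd1 and Ppp1r1b turned without sham array 1 (0.18 and 0.28).

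**Figure D3:**
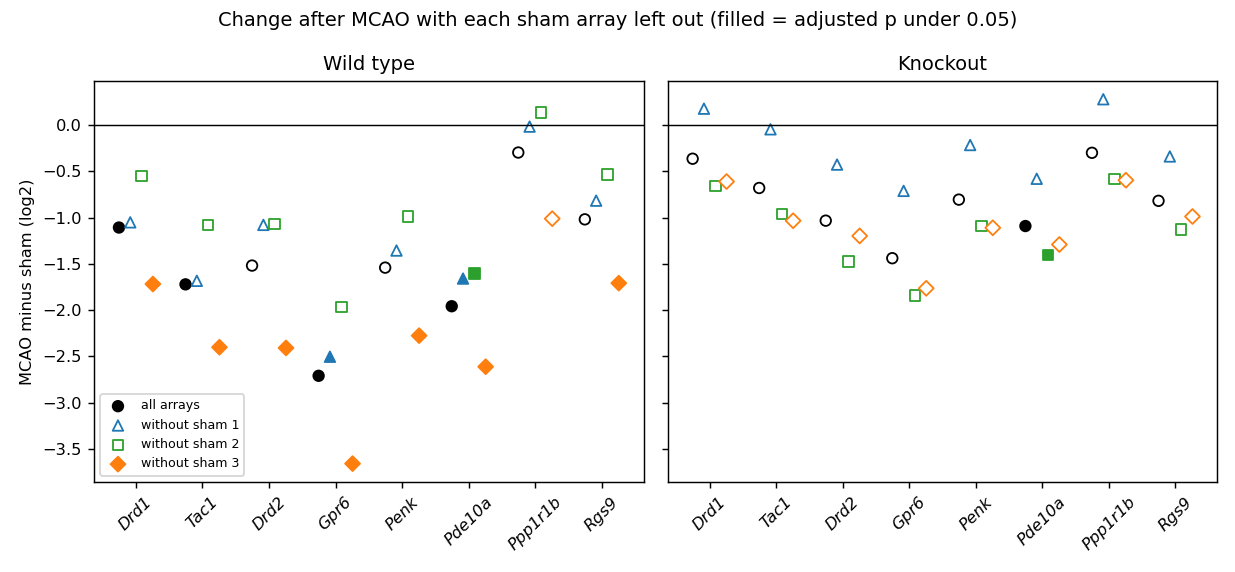
MCAO minus sham in log2 units (y axis) for the leading probe set of each gene (x axis), with all arrays (circle) and without sham array 1 (triangle), 2 (square) or 3 (diamond). Filled symbols have an adjusted p under 0.05: Pde10a is filled at each wild type symbol, and 7 of 8 genes are filled in wild type without sham array 3.

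The change after MCAO was not shown to differ between the genotypes. The difference of the changes, knockout minus wild type, was positive for 7 of the 8 genes, from -0.00299 for Ppp1r1b to 1.27 for Gpr6, with a median of 0.74. By limma 0 of 8 passed and 0 of 8 had an unadjusted p under 0.05, against 8.03% of all genes called in either direction. For Pde10a the difference was 0.87 (SE 0.49, 95% interval -0.15 to 1.89, adjusted p = 0.242), and 1.52 without wild type sham array 3 (adjusted p = 0.0419). Of the 16 probe sets 0 passed, against 7.41% of all probe sets, and by limma 1 had an unadjusted p under 0.05, Pde10a 1439618_at at 1.40 (adjusted p = 0.0858). The changes of both genotypes rest on 3 sham arrays each, and the intervals of the difference were wide, for Gpr6 from -0.46 to 3.00.

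Between genotypes within a surgery, 0 of 8 genes passed after MCAO, against 0.077% of all genes, and 0 of 8 after sham, against 5% of all genes; by limma 0 of 8 had an unadjusted p under 0.05 in either. After MCAO the differences, knockout minus wild type, ran from -0.37 for Ppp1r1b (95% interval -1.09 to 0.34) to 0.44 for Pde10a (-0.114 to 1.002). After sham all 8 were negative, from -0.99 for Gpr6 (-2.44 to 0.45) to -0.13 for Drd2 (-1.49 to 1.22).

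Members did not keep fixed proportions to each other, as Ppp1r1b beside Pde10a shows, a pair singled out after the values were seen and so given with no test or rank among the pairs. The log2 difference within an array has no meaning as a level, since probe sets differ in response. In its shifts between arrays, only a rise or fall that both probe sets share equally cancels. Ppp1r1b minus Pde10a was 0.69, 0.89 and 0.61 in wild type sham arrays and 0.92, 0.84 and 0.59 in knockout sham arrays, high and low arrays alike. It ran from 1.68 to 3.01 in the wild type MCAO arrays (median 2.24), all 7 above all 6 sham arrays. In the knockout MCAO arrays it ran from 0.73 to 2.15 (median 1.77), with 5 arrays at 1.60 or above and arrays 4 (0.73) and 7 (0.85) among the sham values.

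The pattern held in part for other Pde10a probe sets. Ppp1r1b minus 1439618_at was 0.20 to 0.98 in wild type sham and 1.34 to 3.28 in wild type MCAO arrays, and 1.15 to 1.31 against 0.87 to 2.21 in knockout arrays. With 1419390_at the wild type ranges overlapped (2.28 to 3.12 and 2.31 to 4.55), and the knockout MCAO arrays (3.19 to 4.98) all lay above knockout sham (2.91 to 3.12), the reverse of what the leading probe set showed. With 1419389_at the ranges overlapped in wild type (0.98 to 2.64 and 1.33 to 3.04) and in knockout (1.75 to 2.36 and 1.37 to 3.15). With 1432490_a_at they did too, at 3.08 to 4.47 and 2.97 to 4.72 in wild type and 2.76 to 4.27 and 3.14 to 4.22 in knockout. With 1419389_at and with 1432490_a_at the difference followed the sham split. Its lowest wild type sham value (0.98 and 3.08) was that of array 3. Its highest knockout sham value (2.36 and 4.27) was that of array 1. Set against the mean of the 7 other members, Ppp1r1b was 0.76 to 1.12 in wild type sham and 1.03 to 3.06 in wild type MCAO arrays, and 1.03 to 1.22 and 0.59 to 2.16 in the knockout ones. Gpr6 moved the other way on that scale, from -2.59 to -1.62 in wild type sham to -3.89 to -2.52 in MCAO arrays.

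**Figure D4:**
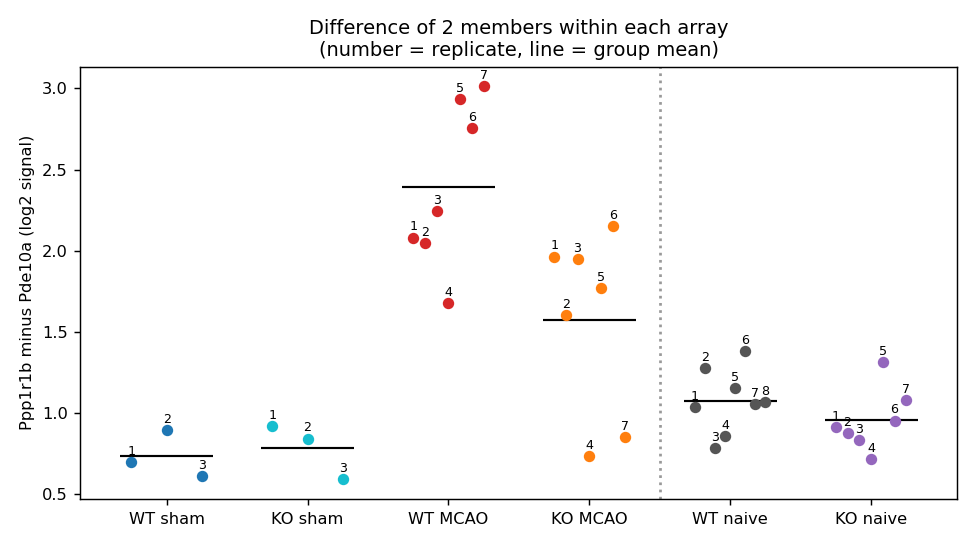
Ppp1r1b minus Pde10a in log2 signal within each array (y axis) by group (x axis; numbers are replicates, lines group means). The 6 sham arrays sit between 0.59 and 0.92 and the 7 wild type MCAO arrays between 1.68 and 3.01; naive arrays, right of the dotted line, were scaled apart.

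Arrays of 1 group tended to be high or low for several members together. Over the 28 pairs of leading probe sets, the correlation of deviations from the group mean had a median of 0.984 in the 6 sham arrays (0.911 to 0.998) and 0.56 in the 14 MCAO arrays (-0.04 to 0.89, 25 of 28 above 0). The arrays share RNA between probe sets, and the sham arrays are those that split into high and low ones. Tests of Pde10a against each of the 7 other members over the MCAO arrays gave r from 0.19 (Ppp1r1b) to 0.58 (Drd2; rho 0.53). By permutation within groups 0 of 7 passed after Benjamini-Hochberg adjustment (smallest adjusted p = 0.22 for r and 0.105 for rho), and 1 of 7 had an unadjusted p under 0.05 by r (Drd2) and 1 of 7 by rho (Rgs9). Without the 2 arrays farthest from the median of Pde10a, r ran from 0.23 to 0.71. Within wild type MCAO arrays alone r was -0.43 for Ppp1r1b and 0.02 to 0.73 for the others, and within knockout ones 0.11 to 0.68.

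The genes most alike to the mean of the members over the 20 surgery arrays, by Pearson's r of the leading probe sets, were Sh3rf2 (0.97), Rxrg (0.96), Rarb (0.95), Serpina9 (0.94), Dmkn (0.92), Slc35d3 (0.89), Adcy5 (0.89) and Actn2 (0.89). The members themselves had r from 0.71 (Ppp1r1b) to 0.95 (Rgs9) with the mean of the other members. Each r was taken on deviations from the group mean, so differences between groups do not enter these values, while the sham split does.

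Other striatal genes were lower as well. In wild type 12 of 18 measured genes of the further medium spiny neuron list were lower and 0 higher, with a median of -1.12, where 6.26% of all genes were lower. Kcnip2, a potassium channel partner protein, changed by -1.23 (SE 0.15, adjusted p = 4.35e-05), Pde7b, a cyclic AMP phosphodiesterase, by -1.62, Rasgrp2, an exchange factor for Rap proteins, by -1.99 and Arpp21, a cyclic AMP regulated phosphoprotein, by -1.38. Without sham array 1 or 2 the count was 4 of 18, and without array 3 it was 12. Of all probe sets 2.6%, 3.16% and 3.06% were lower in the fits without array 1, 2 and 3. In knockout mice 4 of 18 were lower (Kcnip2 -1.12, Rasgrp2 -1.32, Pde7b -0.85 and Pde1b -0.67), with a median of -0.55, where 7.59% of all genes were lower. The knockout count was 1 of 18 without sham array 1 or array 3, where 5.86% and 2.08% of all probe sets were lower.

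Of the 9 measured transcription factors of striatal neurons, 3 were lower in wild type: Bcl11b (-0.94, adjusted p = 0.00150), Rarb (-1.44) and Foxp1 (-0.76). Of all genes 6.26% were lower in this comparison. The count was 1 of 9 without sham array 1 or 2, where 2.6% and 3.16% of all probe sets were lower. In knockout mice 0 of 9 passed by limma and 1 of 9 had an unadjusted p under 0.05; the 4 with the smallest p were Bcl11b (-0.39, adjusted p = 0.115), Foxp1 (-0.42), Six3 (-0.63) and Isl1 (-0.50). Bcl11b, also known as Ctip2, is needed for the maturation of medium spiny neurons.

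Among 18 partners in cyclic AMP and dopamine signalling, 6 were lower in wild type, with a median of -0.34, where 6.26% of all genes were lower. Without sham array 1, 2 or 3 the count was 5, 6 or 7, where 2.6%, 3.16% and 3.06% of all probe sets were lower. Gnb5, the G protein beta subunit that binds Rgs9, changed by -0.91 (adjusted p = 5.34e-05), the protein kinase A subunit gene Prkar2b by -1.07, the scaffold gene Homer1 by -0.91 and the calcineurin gene Ppp3ca by -0.53. In knockout mice Gnb5 was lower (-0.46) and Pde4b, another cyclic AMP phosphodiesterase, was higher (0.81, adjusted p = 0.00157), with 16 of 18 not called. Of the lists for other neurons in wild type, 3 of 9 cortical glutamatergic, 2 of 10 pan-neuronal and 1 of 12 interneuron genes were lower, with medians of -0.37, -0.31 and -0.08. In knockout mice 1 of 9, 1 of 10 and 1 of 12 of these were lower, with medians of -0.10, -0.17 and -0.14, where 7.59% of all genes were lower. Of 12 interneuron genes 1 was higher, where 2713 of all 18193 genes were. With any knockout sham array left out, the pan-neuronal count of lower genes was 0. The cortical count was 0 without knockout sham array 1 or 2, and that of signalling partners was 0 without array 1. Of all probe sets 5.86%, 2.78% and 2.08% were lower without knockout sham array 1, 2 and 3. The differences between these lists were not tested.

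Markers of other cell types changed in the same comparisons. Of all 18193 genes, 1348 were higher in wild type and 2713 in knockout mice. Of 6 endothelial genes 3 were higher in wild type (median 0.69) and 4 in knockout mice (median 0.72). Of 7 astrocyte genes 2 were higher in each (medians 0.10 and 0.03), as were 2 of 6 oligodendrocyte genes (medians 0.20 and 0.18). Of 7 genes of meninges and fibroblasts 1 was higher in wild type and 3 in knockout mice (medians 0.21 and 0.66). Of 7 genes of infiltrating myeloid cells 2 were higher in wild type, up to 3.76 for S100a8, and 3 were higher and 1 lower in knockout mice. Of 6 microglial genes 2 were lower in each, where 6.26% and 7.59% of all genes were lower. Changes of the 6 ran from -2.71 (P2ry12) to 0.61 in wild type, with a median of -0.33. In knockout mice they ran from -1.62 to 0.89, with a median of 0.10. The part of these cell types in the falls of the members was not tested.

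Among naive mice, 1 of 8 members passed with all arrays, Rgs9, which was higher in knockout arrays, and this is no more than the 16.3% of all genes called in that fit. Wild type naive array 6 stood apart: it correlated at 0.805 to 0.825 with the other wild type naive arrays, which correlated at 0.980 to 0.998 among themselves. Its actin 3 prime minus 5 prime difference was 4.88, against 0.28 to 0.72 in the others. In it Ppp1r1b read 6.97 and Pde10a 5.59, while Gpr6 was the highest of all naive arrays at 9.96. Array medians did not overlap between genotypes either (6.87 to 6.94 in wild type and 7.02 to 7.05 in knockout), so results are given with and without array 6 and with other scalings.

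By the fit to all 15 naive arrays, the other 7 leading probe sets did not pass, and 3 of 16 probe sets did, against 20.1% of all probe sets. Rgs9 read 9.44 to 10.32 in wild type (median 10.07) and 10.38 to 10.51 in knockout mice (median 10.43), without overlap in that direction, as did 5.53% of all genes. The difference was 0.40 (SE 0.11, adjusted p = 0.0179), or 1.32-fold. With all arrays the call was lost under quantile normalization (0.29, adjusted p = 0.0688), under median centring (0.25, adjusted p = 0.126) and without dim probe sets (0.40, adjusted p = 0.0611). Without array 6 it was 0.31 (adjusted p = 0.00153), in a fit that called 2 of 8 members (Rgs9 and Drd2) and 39.8% of all probe sets. It passed there with quantile normalization (0.24, adjusted p = 0.0450) and did not pass with each array centred on its median, at 0.16 without array 6 (adjusted p = 0.0640).

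Rgs9 1439635_at was also higher in knockout naive mice, by 0.69 (adjusted p = 0.00947) and by 0.55 without array 6 (adjusted p = 0.000405). It passed without array 6 under median centring as well (0.40, adjusted p = 0.00402), though the groups then overlapped. The dim Rgs9 probe set 1426033_at was not called, at -0.08 with all arrays (adjusted p = 0.658) and 0.01 without array 6 (adjusted p = 0.887). The dim Tac1 probe set 1431883_at was lower, by -0.82 (adjusted p = 0.000237), while the leading Tac1 probe set was not called (-0.15, adjusted p = 0.484). By its leading probe set Tac1 read 11.26 to 12.13 in wild type (median 11.70) and 11.48 to 11.65 in knockout arrays (median 11.52). The knockout arrays lay inside the wild type range. The lowest signal of an array was 3.49 to 3.73 in wild type naive and 3.19 to 3.28 in knockout naive arrays. Its part in the values of dim probe sets was not tested.

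Drd2 read 6.70 to 9.33 in wild type naive arrays (median 9.18) and 9.30 to 9.57 in knockout ones (median 9.36). The difference was 0.52 with all arrays (adjusted p = 0.283) and 0.21 without array 6 (adjusted p = 0.0151), and it was 0.05 with median centring besides (adjusted p = 0.536). Drd1 read 8.58 to 10.39 (median 10.12) and 10.13 to 10.43 (median 10.31), a difference of 0.38 (adjusted p = 0.229). Both receptors had overlapping groups.

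Pde10a read 5.59 to 10.84 in wild type naive arrays (median 10.57) and 10.28 to 10.80 in knockout ones (median 10.63), and differed by 0.62 with all arrays (adjusted p = 0.532) and by -0.01 without array 6 (adjusted p = 0.938). Ppp1r1b read 6.97 to 11.73 (median 11.64) and 11.32 to 11.65 (median 11.61), a difference of 0.50 (adjusted p = 0.590). Without array 6 it was -0.09 (adjusted p = 0.203) and, with median centring besides, -0.24 (adjusted p = 0.00147). That last value passed, with no overlap between the groups, in a fit that called 40.8% of all probe sets. The direction of both leading probe sets thus turned with array 6.

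Penk read 11.54 to 12.15 (median 12.07) and 11.94 to 12.23 (median 12.15) in wild type and knockout naive arrays, a difference of 0.12 (adjusted p = 0.423) that turned to -0.03 with median centring. Gpr6 read 7.58 to 9.96 (median 8.50) and 8.13 to 8.57 (median 8.40), a difference of -0.21 (adjusted p = 0.591). Neither gene separated the genotypes. Of the wider lists, Pde7b (0.24, adjusted p = 0.00495) was the 1 gene of 18 called, below the 16.3% of all genes, and 0 of 9 transcription factors and 0 of 18 signalling partners passed by limma (1 of 9 and 0 of 18 at an unadjusted p under 0.05).

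**Figure D5:**
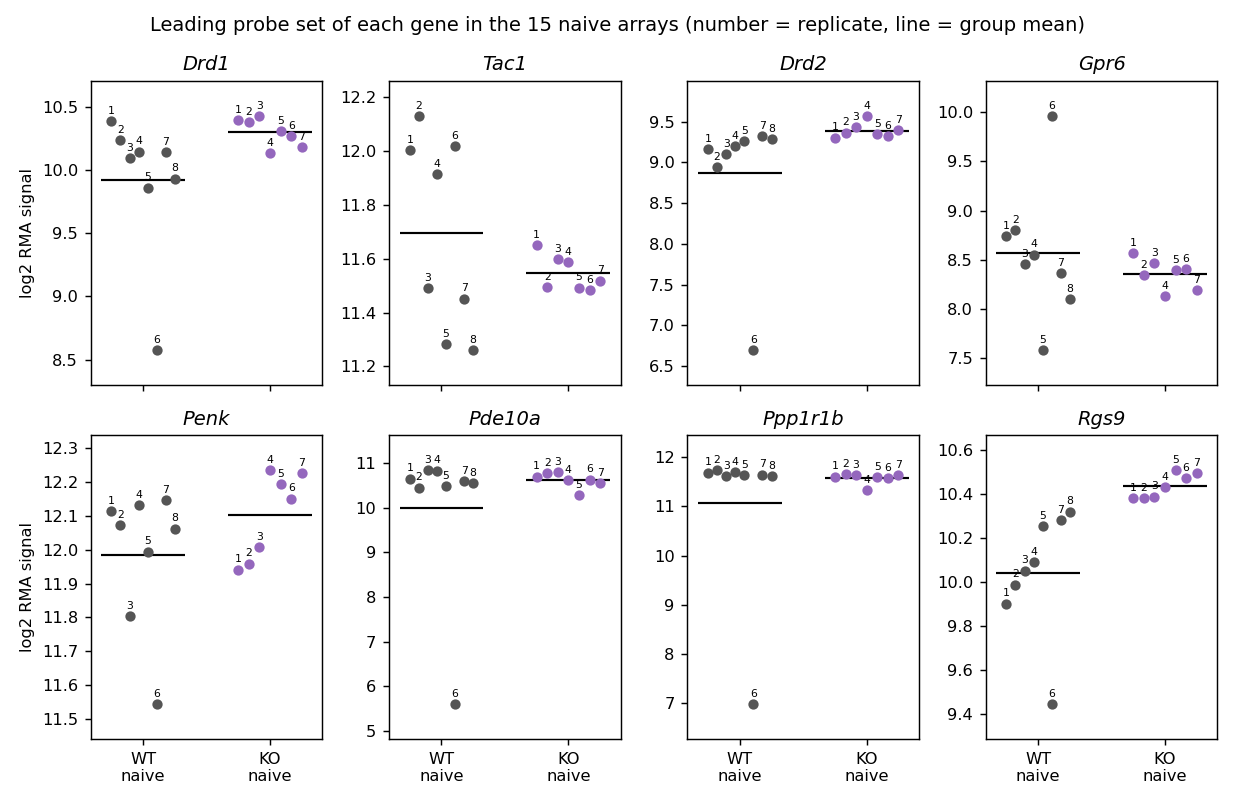
Log2 signal (y axis) of the leading probe set of 8 genes in the 15 naive arrays, by genotype (x axis; numbers are replicates, lines group means). For these probe sets wild type array 6 lies far below the others for Pde10a (5.59) and Ppp1r1b (6.97). It lies above them for Gpr6 (9.96), and the knockout arrays of Rgs9 all lie above the wild type ones. Further Pde10a probe sets, not shown, went both ways in array 6.

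Pairs of members went both ways between naive arrays, with and without array 6. The correlation of deviations from the group mean had a median of 0.68 over 15 arrays (-0.91 to 0.99, 16 of 28 pairs above 0) and of 0.06 over 14 (-0.83 to 0.88, 15 of 28 above 0). Over the 14 arrays Drd1 (0.79), Gpr6 (0.70) and Tac1 (0.63) went with the mean of the other members, and Rgs9 (-0.77) and Drd2 (-0.51) against it. Ppp1r1b (0.28), Pde10a (0.09) and Penk (-0.04) lay between. Tests of Pde10a against the 7 others passed for 0 of 7 over the 15 arrays (smallest adjusted p = 0.127 for r and 0.0546 for rho) and 0 of 7 over the 14 by permutation, with 2 of 7 and 0 of 7 at an unadjusted p under 0.05 for r. Within the 7 knockout naive arrays 1 of 7 passed, Rgs9, with r = -0.86 (permutation p = 0.00249, adjusted p = 0.0174) and rho = -0.86 (adjusted p = 0.171). Without the 2 arrays farthest from the median of Pde10a, r was -0.88. The adjustment covered the 7 tests in these arrays and not those in the other sets of arrays. Rgs9 spanned 0.125 log2 units, or 1.09-fold, over the knockout naive arrays.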

How the data were processed

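Log2 signals of 45101 Affymetrix probe sets in 35 arrays, as deposited by the authors, were made by RMA per the submitters' processing notes (version not given in the sources used here). Naive and surgery arrays were normalized apart, per the design text of the series. Left out were 64 control probe sets. A probe set was named only where the platform annotation lists 1 symbol (34945 probe sets, 34741 of them matched to RefSeq by Entrez ID), 932 list several and 9160 were unlisted. No 2 arrays held identical values. The number of arrays limits the precision. The gene deleted in the knockout is not reported here.

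Linear models of limma 3.58.1 (lmFit, contrasts.fit, eBayes; R 4.3.3) covered all 45037 probe sets, separately for the 20 surgery and the 15 naive arrays. A call is an adjusted p (Benjamini-Hochberg) under 0.05. Standard errors and 95% intervals are limma's moderated ones. The pipeline was tested on simulated data. Relations used 100000 permutations within groups and are two-sided. Those within single groups were run besides the planned ones over the 14 MCAO and the 15 naive arrays.

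Members and gene lists were chosen with earlier results of these data known. The rule for named genes took every member, the up to 4 genes of each striatal list with the smallest p in each MCAO comparison, up to 2 in the naive one, and the 8 genes most like the members. Other settings tried were a trend with robust prior, no dim probe sets, 1 probe set or the mean per gene, median centring, quantile normalization, array weights, an adjusted p under 0.01, actin and Gapdh covariates, a replicate block, only the arrays compared and each array left out. Fits without naive array 6 under other scalings, without MCAO arrays of high Gapdh difference, and the naive relation without array 6 were added after seeing the data. Deviations of same-numbered arrays correlated above 0.1 for some pairs only, so numbers were not taken to pair arrays. These were 4 of 7 pairs in naive mice, 2 of 7 between the MCAO groups and 1 of 3 for wild type MCAO and sham. For knockout MCAO and sham they were 0 of 3, and between the sham groups 0 of 3.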

Additional observations from a re-analysis of the deposited data

Results flagged for a closer look

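Of 32 sets of a gene and a group with 4 to 10 arrays, 9 had an array whose gap to its nearest neighbour was large for the range of the group (Dixon's test), and chance flags about 1 in 20 such groups. By leading probe sets, wild type naive array 6 gave 4 of them: Drd1 at 8.58, Drd2 at 6.70, Pde10a at 5.59 and Ppp1r1b at 6.97. The next lowest arrays read 9.86, 8.95, 10.5 and 11.6. Wild type MCAO array 4 gave 3, with Gpr6 at 6.67 and Rgs9 at 9.31 above the other arrays of its group and Ppp1r1b at 9.77 below them; the actin 3 prime minus 5 prime difference of that array was 1.70, the highest of its group, and its part was not tested. Penk was low in knockout MCAO array 7, at 8.81 against a next lowest 10.3. Ppp1r1b was low in knockout naive array 4, at 11.3 against a next lowest 11.6.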

How the results depend on the processing

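The number of genes called in wild type after MCAO (4 of 8) was 2 at an adjusted p under 0.01, with an intensity trend and robust prior, or with repeated quantile normalization, and 1 to 7 when single arrays were left out. In knockout mice (1 of 8) it was 0 at the stricter threshold, with array weights, with the actin or the Gapdh covariate and without the 3 MCAO arrays of high Gapdh difference, and 0 to 1 with single arrays left out. The interaction (0 of 8) gave 0 to 1, the 1 being Pde10a without wild type sham array 3. The naive count (1 of 8) was 2 with the actin covariate, array weights or the mean of probe sets, 3 with the Gapdh covariate, 0 at the stricter threshold, with median centring, quantile normalization or without dim probe sets, and 1 to 2 with single arrays left out. For most counts in this paragraph the share of all features called in the same fit is not given. They are therefore not read as results about the members. In naive mice that share was 20.1% of probe sets with all arrays and 39.8% without array 6. The relation with Pde10a in naive arrays passed for 1 gene in knockout arrays alone. With the replicate number as a block, 2 genes were called in wild type and 0 in knockout mice; the numbers were not taken to pair arrays (r of same-numbered deviations from -0.21 to 0.47). Median centring moved the share of higher among all called probe sets from 47.8% to 38.0% in wild type, from 57.6% to 68.4% in knockout and from 41.8% to 66.1% for the interaction. Causes were not tested.

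Values not called in the main fits changed sign. That of Ppp1r1b in naive mice, under median centring without array 6, passed with the sign turned (limma, adjusted p = 0.00147). Ppp1r1b turned in the interaction (Gapdh 0.0201, Gapdh arrays left out 0.176, actin 0.29, array weights 0.316, median centring 0.0806), in knockout MCAO (actin 0.025, array weights 0.0228) and in naive mice (Gapdh -0.0127, actin -0.0671, array weights -0.0684, quantile normalization without array 6 -0.101, median centring without it -0.24). Rgs9 turned after MCAO between genotypes (Gapdh 0.0269, Gapdh arrays left out 0.0904, array weights 0.161, median centring 0.00137) and in the interaction (quantile normalization -0.0361). Pde10a turned in naive mice (array weights -0.0435, 1 probe set per gene -0.0906, without array 6 quantile normalization -0.0684 and median centring -0.16), Penk there (median centring -0.0294, and -0.0987 without array 6), and Drd1 after MCAO between genotypes (quantile normalization -0.0235).

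With single arrays left out, values that turned ranged as follows. In the interaction Ppp1r1b ran from -0.44 to 0.71 and Rgs9 from -0.29 to 0.89. After MCAO between genotypes Drd1 ran from -0.0228 to 0.13 and Rgs9 from -0.18 to 0.0901. After sham Drd2 ran from -1.02 to 0.32, Penk from -1.18 to 0.11, Ppp1r1b from -1.09 to 0.0636 and Rgs9 from -0.93 to 0.24. MCAO against sham ran in knockout from -0.66 to 0.18 for Drd1 and -0.59 to 0.28 for Ppp1r1b, and in wild type from -1.01 to 0.14 for Ppp1r1b. In naive mice Pde10a ran from -0.0101 to 0.74 and Ppp1r1b from -0.0873 to 0.59.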
